A study of Triticum aestivum with 24 samples.

Results

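The 100 genes described here had lower transcript levels after gibberellin (GA) treatment in the leaf sheath of the wheat cultivar Cadenza. They have the largest ratios under the rule below, which ranks genes and does not test whether GA lowered each of them. The genes were chosen by their TPM in the 8 Cadenza libraries. A gene entered when all 4 GA-treated Cadenza libraries lay below all 4 water-treated ones, the mean of these 8 libraries was at least 2 TPM and (mean in water + 0.5)/(mean under GA3 + 0.5) was at least 1.5. TPM is the abundance of a gene's transcripts, corrected for their length and scaled to the same total in each library. Of the 107891 genes in the table, 326 met the rule, and the 100 with the largest ratios were kept. The same rule turned to the opposite direction was met by 102 genes.

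The 24 RNA-seq libraries formed 6 groups of 4 biological replicates, from 3 wheat lines that each received water or GA3 at 100 µM. RNA came from the sheath of seedlings aged 7 d, in the stretch enclosed by the coleoptile, and was sampled 8 h after the treatment. Cadenza was the wild type. The *idd5* line carries chemically induced (EMS) mutations in all the homoeologous copies of *IDD5*, on the A, B and D subgenomes, and was backcrossed to Cadenza. The near-isogenic *Rht-D1b* line carries the GA-insensitive semi-dwarfing allele of the DELLA gene *RHT-D1* in the same Cadenza background. The wild-type segregant of the *idd5* cross had no library here, so mutations that remain from the mutagenized parents cannot be told apart from those in *IDD5*.

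GA is perceived by the GID1 receptor, which then binds DELLA proteins and leads to their degradation, and growth is released. DELLA proteins act mainly by binding transcription factors, among them IDD proteins, a family of zinc finger factors to which IDD5 belongs. The protein of the *Rht-D1b* allele resists degradation and keeps restraining growth when GA is supplied. Transcripts that fall after GA treatment are known to include those of GA biosynthesis enzymes, whose genes are under negative feedback.

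The question asked of the 100 genes is whether the fall seen in Cadenza also occurred in the seedlings of *idd5* and *Rht-D1b*, whose 16 libraries had no part in choosing them. Of the identifiers in the table, 0 matched those of the reference annotation used here, so the genes are given by identifier, and no function or cell type marker could be assigned to them. The identity of the tissue was therefore not checked against markers. The 6 *IDD5* and *RHT* homoeologues could be identified, and 0 of them were among the 100. *IDD5-B1* transcripts were higher in *idd5* (35.9 ± 0.77 TPM in water, SD, n = 4) than in Cadenza (9.43 ± 0.93 TPM, SD, n = 4), and those of *RHT-D1* were higher in *Rht-D1b* (105 ± 1.7 TPM, SD, n = 4) than in Cadenza (65.7 ± 3.9 TPM, SD, n = 4). Between 56583 and 58700 genes reached 0.5 TPM in each library. The depth behind each value is unknown, because TPM does not retain it. In whole tissue, fewer cells of a type and less RNA per cell cannot be told apart.

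In Cadenza, the values that chose the genes ran as follows, and no test is given for them. The ratio of water to GA3 was 4.85 for the first gene, 2.29 at the median and 1.95 for the last, and 92 genes had a ratio of 2 or more. Over all 63241 genes tested, 3.72% had all 4 GA-treated Cadenza libraries below the 4 water-treated ones. Most of the 100 were of low or moderate abundance. In water-treated Cadenza, 57 had a mean below 10 TPM, 38 lay between 10 and 50 TPM and 5 lay above 50 TPM. Water-treated replicate 2 stood above its group for many of them. Without that library the median ratio was 2.13, and 61 genes had a ratio of 2 or more. Without GA-treated replicate 2 this number was 71, and without any other single Cadenza library it was between 84 and 97.

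TraesCS7B02G050800 had the largest ratio. Its water-treated Cadenza libraries had 7.97, 9.65, 10.8 and 16.1 TPM, and its GA-treated ones 2.38, 0.74, 1.75 and 2.72 TPM. The next by ratio was TraesCS5A02G185600, with 12.8, 25.6, 13.2 and 11.1 TPM in water and 5.13, 2.6, 2.12 and 2.95 TPM under GA3. Both were at low levels once GA3 was given, below 6 TPM in every GA-treated Cadenza library. The most abundant member was TraesCS3A02G537700, with 169, 280, 173 and 172 TPM in water and 141, 56.9, 96.1 and 110 TPM under GA3. Its groups were close to touching, since the highest GA-treated library was separated from the lowest water-treated one by less than the spread within either group. At the lower end of the ratios, TraesCS6A02G238300 (ratio 1.96) and TraesCS3B02G132900 (1.95) were the last genes kept, and TraesCS3D02G484900 (1.948) and TraesCS4B02G342300 (1.947) the first left out.

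In the mutants none of the members passed the test under GA3. On the log2(TPM + 0.5) scale, which understates changes of genes with low TPM, the median change of the 100 genes under GA3 was -0.26 in *idd5* and -0.02 in *Rht-D1b*. The corresponding value of -1.22 in Cadenza comes from the libraries that chose the genes for their difference, which enlarges it, so the lines are not compared on it. Over all tested genes the medians were -0.03 in *idd5* and -0.01 in *Rht-D1b*. In *idd5*, 82 of the 100 had a lower mean log2 level under GA3, against 57.8% of all tested genes. In *Rht-D1b*, 52 did, against 53.1% of all tested genes, and with a pseudocount of 1 the median there was 0.00. The values of both lines hung on single libraries. In *idd5* the number of lower genes was 58 without water-treated replicate 3, 63 without GA-treated replicate 1 and 97 without water-treated replicate 4. The *Rht-D1b* number of lower genes was 81 without GA-treated replicate 3 and 79 without water-treated replicate 2, and it was 37 without either GA-treated replicate 1 or water-treated replicate 4. The median change of *idd5* lay between -0.06, without water-treated replicate 3, and -0.58, without water-treated replicate 4.

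Gene by gene, 0 of the 100 changed under GA3 in *idd5* or in *Rht-D1b* at an adjusted p of 0.01 in limma's test over all tested genes, and the share of all tested genes called in either line, in either direction, was 0.0%. The smallest adjusted p of a member was 0.416 in *idd5* and 0.547 in *Rht-D1b* (limma). At an unadjusted p under 0.05, 12 members were lower and 0 higher in *idd5*, where 4.83% of all tested genes were lower and 1.84% higher. In *Rht-D1b* 10 were lower and 0 higher, where 3.55% and 2.31% of all tested genes were. Over both mutants together, from 8 libraries against 8, 0 members were called, 16 were lower and 0 higher at an unadjusted p under 0.05 (5.36% and 2.26% of all tested genes). These p-values share a variance with the Cadenza libraries. With only the groups compared, 8 members were lower and 0 higher in *idd5* (2800 and 1153 of all 63241 tested genes). In *Rht-D1b* 10 were then lower and 1 higher (1726 and 1226), and over both mutants 14 and 0 (2961 and 1322). All 4 GA-treated libraries lay below all 4 water-treated ones for 3 members in *idd5* (2.33% of all tested genes), for 6 in *Rht-D1b* (1.69%) and for 0 in both (0.0822%). The reverse order was seen for 0 members in either line (1.09% and 1.03%).

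**Figure D1:**
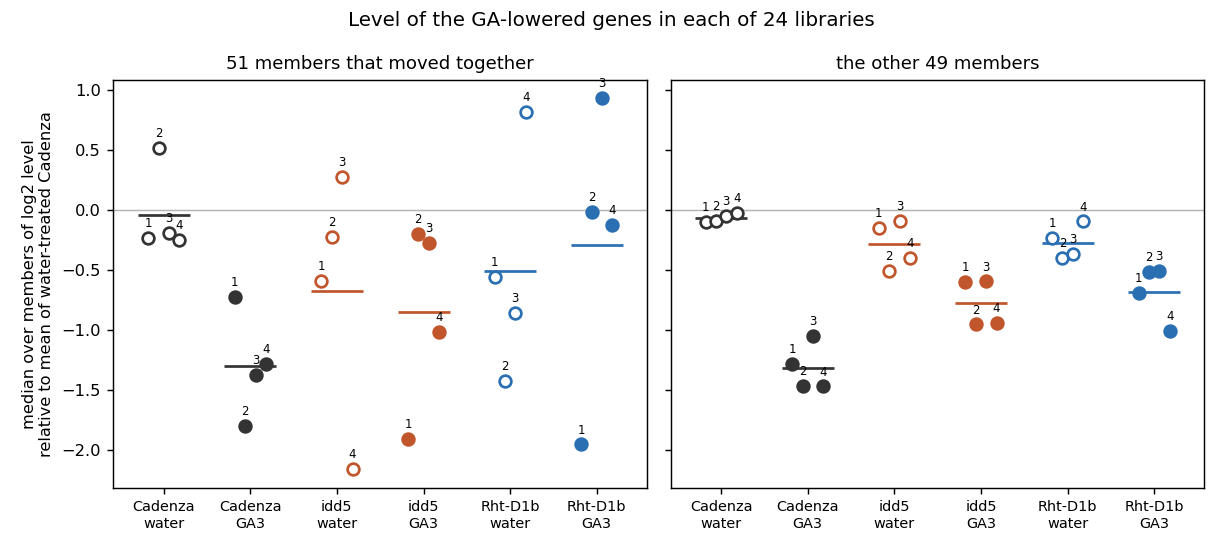
Median log2 level of the members in each library, relative to the mean of water-treated Cadenza, for the 51 members that moved together between libraries (left) and the other 49 (right). Each point is a library (open, water; filled, GA3; the number is the replicate) and each bar the mean of 4. On the left the mutant libraries run from -2.16 to 0.93, beyond both Cadenza groups, and on the right every GA-treated mutant library lies at or below -0.50.

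The members differed from other genes in how much they varied between replicates. The standard deviation of log2(TPM + 0.5) within the 4 mutant groups was 0.82 at the median of the 100, with a range of 0.20 to 1.60, and 0.18 at the median of the 43400 tested genes with a Cadenza mean of at least 2 TPM. For 79 members it was above 0.51, the 95th percentile of those genes. The mutant libraries did not choose the members, but the rule kept the largest ratios of 4 against 4 libraries, which favours genes of large replicate spread. The compared genes were not matched to the members for level. The larger spread is therefore a description. In Cadenza the corresponding medians were 0.46 and 0.16.

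Much of this variation was shared. For 51 members the deviations from the group means over the 16 mutant libraries followed the median deviation of all 100 with a correlation of 0.8 or more, a limit set after the values had been seen. Of all tested genes, 976 (1.54%) did so. Each member is part of the median it was compared with, and the points share libraries, so the correlation is a description. The median level of these 51 genes in water-treated *idd5* was -0.59, -0.22, 0.28 and -2.16 in replicates 1 to 4, on the log2 scale relative to the mean of water-treated Cadenza. Under GA3 the values of *idd5* were -1.91, -0.20, -0.27 and -1.02. In water-treated *Rht-D1b* it was -0.56, -1.43, -0.85 and 0.82, and in GA-treated *Rht-D1b* -1.95, -0.02, 0.93 and -0.12. The highest and the lowest libraries thus occurred under both treatments. Water-treated *idd5* replicate 4 lay below every GA-treated Cadenza library (-0.73, -1.80, -1.37 and -1.28), and water-treated *Rht-D1b* replicate 4 and GA-treated *Rht-D1b* replicate 3 lay above every water-treated Cadenza library (-0.23, 0.52, -0.19 and -0.25). The labels give no batch, harvest order or RNA quality by which these libraries could be divided, and the part of such differences in the result was not tested.

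Of the 5 members above 50 TPM in water-treated Cadenza, 4 belonged to this set, and TraesCS6B02G092200 (85.2 ± 18.9 TPM, SD, n = 4), with a correlation of 0.47, did not. TraesCS7D02G439800 had 44.5, 95.6, 44.2 and 46.5 TPM in water-treated Cadenza and 39.3, 14.3, 22.5 and 23.3 TPM in GA-treated Cadenza. In *idd5* it had 39.9, 47.4, 70.5 and 10.3 TPM in water and 11.4, 51.5, 50.6 and 26.6 TPM under GA3. The *Rht-D1b* libraries had 37.6, 23.2, 32.6 and 111 TPM in water and 15.5, 57.5, 111 and 57.1 TPM under GA3. The groups of each mutant overlapped over nearly their whole range, with a log2 change of -0.20 (standard error 0.61) in *idd5* and 0.21 (standard error 0.61) in *Rht-D1b*. TraesCS3A02G537700 had 144, 212, 258 and 58.1 TPM in water-treated *idd5*, against 74.7, 200, 210 and 139 TPM under GA3. The values in *Rht-D1b* were 161, 93.9, 147 and 395 TPM in water and 63.1, 232, 417 and 223 TPM under GA3. The same libraries were high and low as for TraesCS7D02G439800. TraesCS7A02G450400, TraesCS7B02G350200, TraesCS5A02G185600 and TraesCS5B02G183800 also belonged to the set, with correlations of 0.95 to 0.98.

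**Figure D2:**
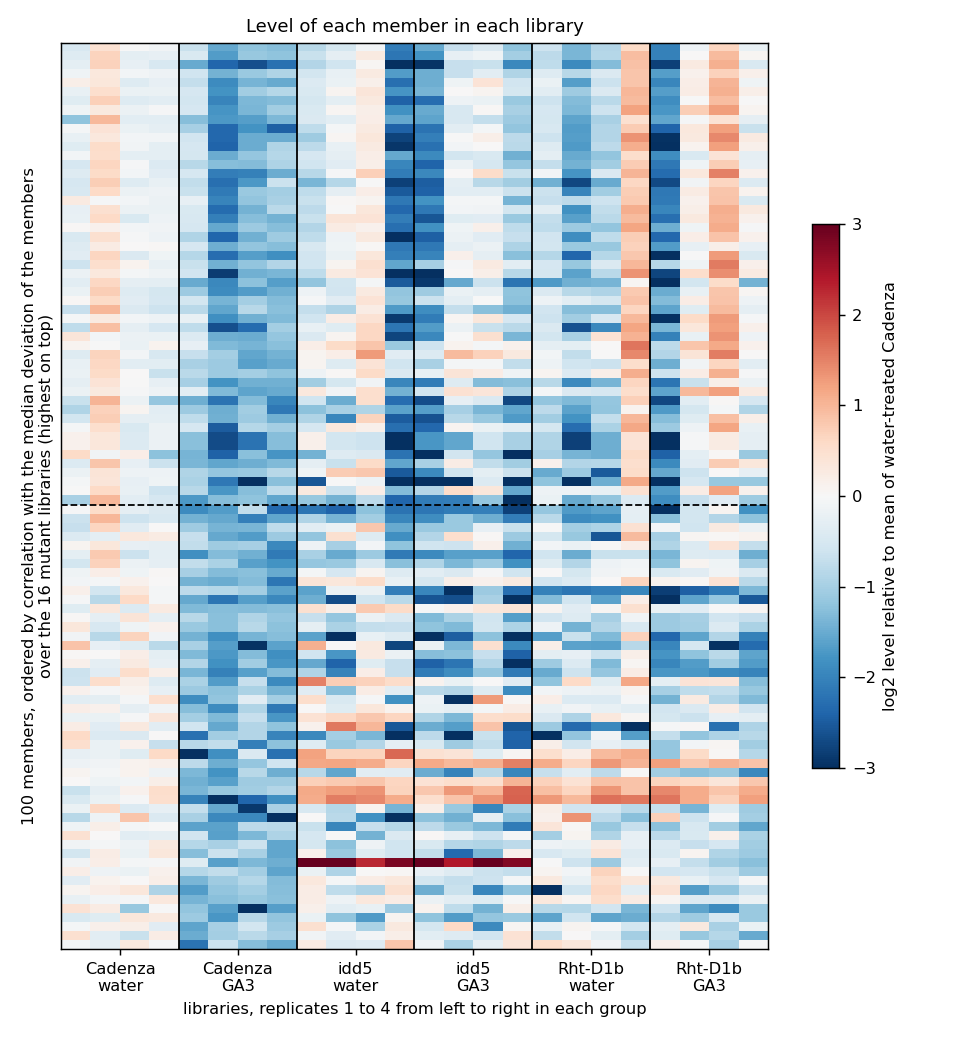
Log2 level of each of the 100 members (rows) in each of the 24 libraries (columns), relative to the gene's mean in water-treated Cadenza, with the scale held at -3 and 3. The dashed line separates the 51 members with a correlation of 0.8 or more from the other 49; above it whole columns of the mutants are blue or red together, and below it the columns are more even.

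The other 49 members varied less between replicates. Their standard deviation within the mutant groups was 0.55 at the median, against 1.05 for the 51. Under GA3, 43 of the 49 had a lower mean log2 level in *idd5* (median change -0.31) and 39 in *Rht-D1b* (median change -0.24). Of all tested genes, 57.8% were lower in *idd5* and 53.1% in *Rht-D1b*. Of the 51, 39 were lower in *idd5* (median -0.19) and 13 in *Rht-D1b* (median 0.16). The median of the 49 in *idd5* was -0.15, -0.50, -0.09 and -0.40 in water and -0.60, -0.95, -0.59 and -0.94 under GA3, on the log2 scale relative to water-treated Cadenza. In *Rht-D1b* it was -0.23, -0.40, -0.37 and -0.09 in water and -0.69, -0.51, -0.50 and -1.01 under GA3. These library medians did not overlap between treatments in either mutant. The set had, however, been freed of the genes that followed the shared variation of the same libraries, which favours such a separation. In GA-treated Cadenza, whose low values chose the members, the median was -1.28, -1.47, -1.05 and -1.47. Since the division was made after the values had been seen and used these libraries, it carries no test.

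A fitted mean at least 1.5-fold lower under GA3 in each mutant was found for 7 members, against 0.293% of all tested genes. In *idd5* alone 19 members were lower by this much in their fitted means (2.57% of all tested genes) and 0 were higher by as much (0.947%). In *Rht-D1b* the numbers were 12 (1.52%) and 5 (1.69%). Members varied more within the mutant groups (median SD 0.82) than all tested genes (0.22), so replicate spread alone carries more of them past a fixed fold change. The shares are therefore not a like comparison. The 1.5-fold criterion was chosen after the values had been seen. Of the 7, 0 passed limma's test over both mutants, where their adjusted p lay between 0.196 and 0.546. They were TraesCS4A02G021700, TraesCS4A02G234100, TraesCS4B02G281800, TraesCS4D02G079900, TraesCS4D02G280400, TraesCS2D02G295000 and TraesCS3B02G214700. Of these, 5 are on chromosomes 4A, 4B and 4D, which hold 11 of the 100 members. These chromosomes hold 4.59%, 4.23% and 4.18% of the tested genes with a Cadenza mean of at least 2 TPM. All 5 ranked the water-treated *idd5* libraries in the same order, so they may not be separate cases. Whether some are homoeologous copies was not examined.

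TraesCS4A02G234100 was the most abundant of these in Cadenza, with 27.3, 26.7, 30.6 and 21.5 TPM in water and 10.2, 7.7, 10.5 and 7 TPM under GA3. In *Rht-D1b* it had 21.5, 22.4, 16.8 and 30 TPM in water and 7.4, 11.2, 15 and 8.46 TPM under GA3. These groups did not overlap (log2 change -1.09, standard error 0.34, exact two-sided permutation test p = 0.0286, below which 4 against 4 libraries cannot go). The *idd5* libraries had 17.3, 7.54, 32.3 and 23.3 TPM in water and 10.7, 10.9, 16.2 and 4.53 TPM under GA3, and water-treated replicate 2 lay among the GA-treated libraries (log2 change -0.85, standard error 0.34, exact p = 0.171). TraesCS4D02G079900 had a like pattern, which may not be a separate case. It had 16.2, 14.6, 16.6 and 13.6 TPM in water-treated Cadenza and 5.65, 4.05, 8.29 and 5.19 TPM under GA3. Water-treated *Rht-D1b* had 9.26, 12.2, 8.7 and 15.1 TPM and GA-treated *Rht-D1b* 7.2, 6.07, 6.72 and 3.62 TPM, again without overlap (log2 change -0.89, exact p = 0.0286). In *idd5* it had 8.34, 4.82, 12.1 and 11.9 TPM in water and 5.15, 3.4, 8.3 and 3.53 TPM under GA3, with overlap (log2 change -0.81, exact p = 0.114). For these genes the difference between the responses of *idd5* and *Rht-D1b* was smaller than its standard error (0.25, standard error 0.49, and 0.08, standard error 0.39).

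TraesCS4A02G021700 had the most negative fitted change of the 7 in *Rht-D1b*. It had 5.13, 8.78, 4 and 15.3 TPM in water and 1.1, 4.11, 5.69 and 1.86 TPM under GA3 in that line, where the groups overlapped (log2 change -1.28, exact p = 0.143). In *idd5* it had 4.45, 1.66, 8.65 and 7.4 TPM in water and 1.78, 1.73, 6.46 and 0.31 TPM under GA3 (log2 change -1.19, exact p = 0.229). TraesCS2D02G295000 was one of the 3 members without overlap in *idd5*, with 36.3, 25.2, 24.9 and 52.1 TPM in water and 21.7, 20.4, 12.1 and 16.2 TPM under GA3 (log2 change -0.92, exact p = 0.0286). TraesCS7B02G458800 and TraesCS5D02G225600 were the others. The smallest adjusted p of a member over both mutants was that of TraesCS7B02G456500 (0.113 in limma's test), a gene of small replicate spread. It had 35.3, 27.4, 37.6 and 35.5 TPM in water-treated *idd5* and 27, 24.4, 23.5 and 30 TPM under GA3. In *Rht-D1b* it had 37.9, 31.5, 43.7 and 36 TPM in water and 31.5, 22.4, 22.4 and 26.7 TPM under GA3. Only 1 pair of libraries crossed in each line, and the mean log2 change over both lines was -0.45 (standard error 0.09). In Cadenza, whose values chose the gene, it had 30.3 ± 5.1 TPM in water and 12.4 ± 0.97 TPM under GA3 (SD, n = 4). The size of that fall is therefore not compared with the change in the mutants.

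**Figure D3:**
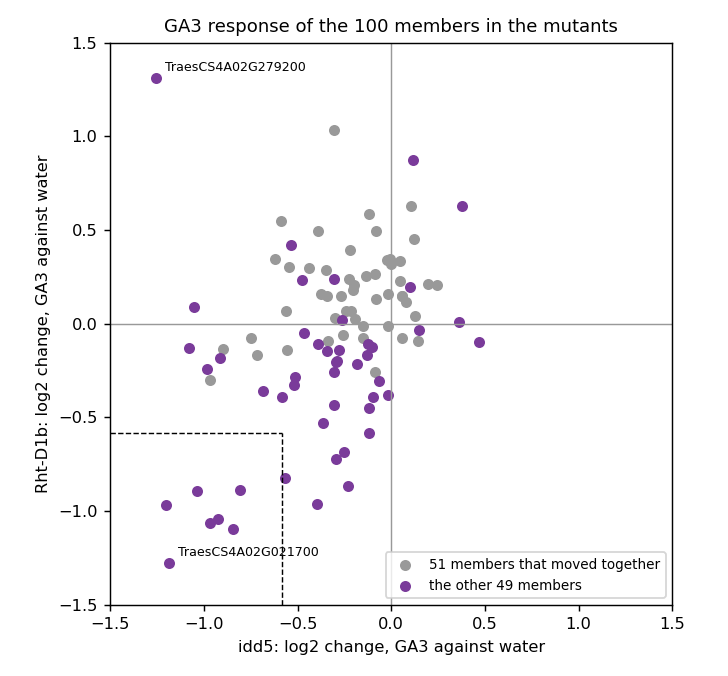
Log2 change under GA3 of each of the 100 members in *idd5* (horizontal) and *Rht-D1b* (vertical), with the 51 members that moved together in grey and the other 49 in purple. The dashed corner encloses the 7 members at least 1.5-fold lower in each line, all of them purple, and TraesCS4A02G279200 at the upper left had changes of opposite sign.

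Side by side, 48 members had a negative change in both mutants, 14 a positive change in both, 34 were negative in *idd5* only and 4 in *Rht-D1b* only. For each line taken singly, 57.8% (*idd5*) and 53.1% (*Rht-D1b*) of all tested genes had a negative change. The shares of all tested genes with these combinations were not computed, so whether 48 is unusually many was not tested. The response of *idd5* was lower than that of *Rht-D1b* for 72 members, against 53.5% of all tested genes, and its median difference was -0.23. This too hung on single libraries. The number was 48 and the median 0.03 without GA-treated *Rht-D1b* replicate 3, the number was 52 without water-treated *idd5* replicate 3, 54 without water-treated *Rht-D1b* replicate 2 and 56 without GA-treated *idd5* replicate 1, and the highest was 82, without water-treated *Rht-D1b* replicate 4. None of these differences passed limma's test (0 members and 0.0% of all tested genes at an adjusted p of 0.01). At an unadjusted p under 0.05, 2 members were lower and 1 higher, below the 3.01% and 1.79% of all tested genes. TraesCS4A02G279200 had the largest difference. It had 5.54, 16.1, 10.5 and 0.45 TPM in water-treated *idd5* and 1.46, 1.26, 9.53 and 0.43 TPM under GA3. In *Rht-D1b* it had 2.1, 0.6, 0.96 and 0.17 TPM in water and 4.93, 5.22, 0.67 and 2.41 TPM under GA3. The treatments overlapped in both lines, and the difference of -2.57 had a standard error of 1.02 (limma adjusted p = 0.999). The largest positive changes in *Rht-D1b* after that of this gene were 1.04 in TraesCS7D02G055600 and 0.88 in TraesCS1D02G086000.

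The levels of the members in the mutants lay mostly between the Cadenza groups. In water, the mean of *idd5* was between the means of water- and GA-treated Cadenza for 77 members, above both for 21 and below both for 2. For *Rht-D1b* these numbers were 73, 24 and 3. Under GA3 they were 70, 11 and 19 in *idd5* and 57, 37 and 6 in *Rht-D1b*. The median ratio to water-treated Cadenza was 0.76 in water-treated *idd5* and 0.628 under GA3, and 0.857 and 0.878 in *Rht-D1b*. The choice of the members raised their level in water-treated Cadenza and lowered it in GA-treated Cadenza, so these places are a description.

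A few members stood above Cadenza in both mutants whatever the treatment, in numbers near the share of all tested genes. All 4 water-treated libraries were above all 8 Cadenza libraries for 8 members in *idd5* (4.88% of all tested genes), for 4 in *Rht-D1b* (3.46%) and for 4 in both (2.27%). The last 4 were TraesCS7B02G050800, TraesCS7D02G149200, TraesCS7B02G137200 and TraesCS5A02G325200. Under GA3 the libraries of both mutants were above Cadenza for TraesCS7D02G149200, TraesCS7B02G137200 and TraesCS5A02G325200 (3 members, 2.17% of all tested genes). For each line alone, 4 members in *idd5* (4.5%) and 4 in *Rht-D1b* (3.25%) were so placed. The opposite place in water, below all 8 Cadenza libraries, was taken by 0 members in *idd5* (5.46%) and 1 in *Rht-D1b* (5.21%), TraesCS6D02G302300 with 1.37, 1.16, 1.35 and 1.47 TPM. The choice of the members raised their values in water-treated Cadenza and lowered those in GA-treated Cadenza. Both places are thus harder to reach for members than for other genes, so these counts and shares are a description.

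TraesCS7D02G149200 had 39.1, 35.1, 36.7 and 43.8 TPM in water-treated Cadenza and 14, 12.2, 18.3 and 18.2 TPM under GA3. In *idd5* it had 64.3, 66.5, 68.9 and 61 TPM in water and 52.7, 56.3, 54.1 and 79.1 TPM under GA3. In *Rht-D1b* it had 63.1, 52, 71.4 and 70.9 TPM in water and 61.7, 59.1, 49.7 and 67.6 TPM under GA3. The levels of the mutant groups differed by less than the replicate spread, and the log2 changes under GA3 were -0.12 and -0.11 (standard error 0.14 each), with exact p of 0.514 and 0.429. TraesCS5A02G325200 had 27.4, 28.6, 33 and 34 TPM in water-treated Cadenza and 17.5, 10.8, 13.4 and 20 TPM under GA3. Its means were 63.9 ± 10 and 70.8 ± 12 TPM in water- and GA-treated *idd5*, and 63.5 ± 12 and 61.6 ± 8.5 TPM in *Rht-D1b* (SD, n = 4). TraesCS7B02G050800, the gene with the largest ratio in Cadenza, had 24.6, 33.1, 31 and 24.8 TPM in water-treated *idd5* and 16.1, 20.5, 28.9 and 38.8 TPM under GA3. In *Rht-D1b* it had 28.1, 22.4, 36.1 and 34.1 TPM in water and 34.8, 24.8, 18.3 and 26.8 TPM under GA3. All its mutant libraries were above every GA-treated Cadenza library, and its treatments overlapped in both lines (exact p = 0.657 and 0.429). TraesCS4B02G342300, just outside the limit of 100, had a like order, with 5.25 TPM in water-treated Cadenza, 2.45 TPM under GA3 and means of 7.01 to 7.78 TPM in the mutant groups.

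**Figure D4:**
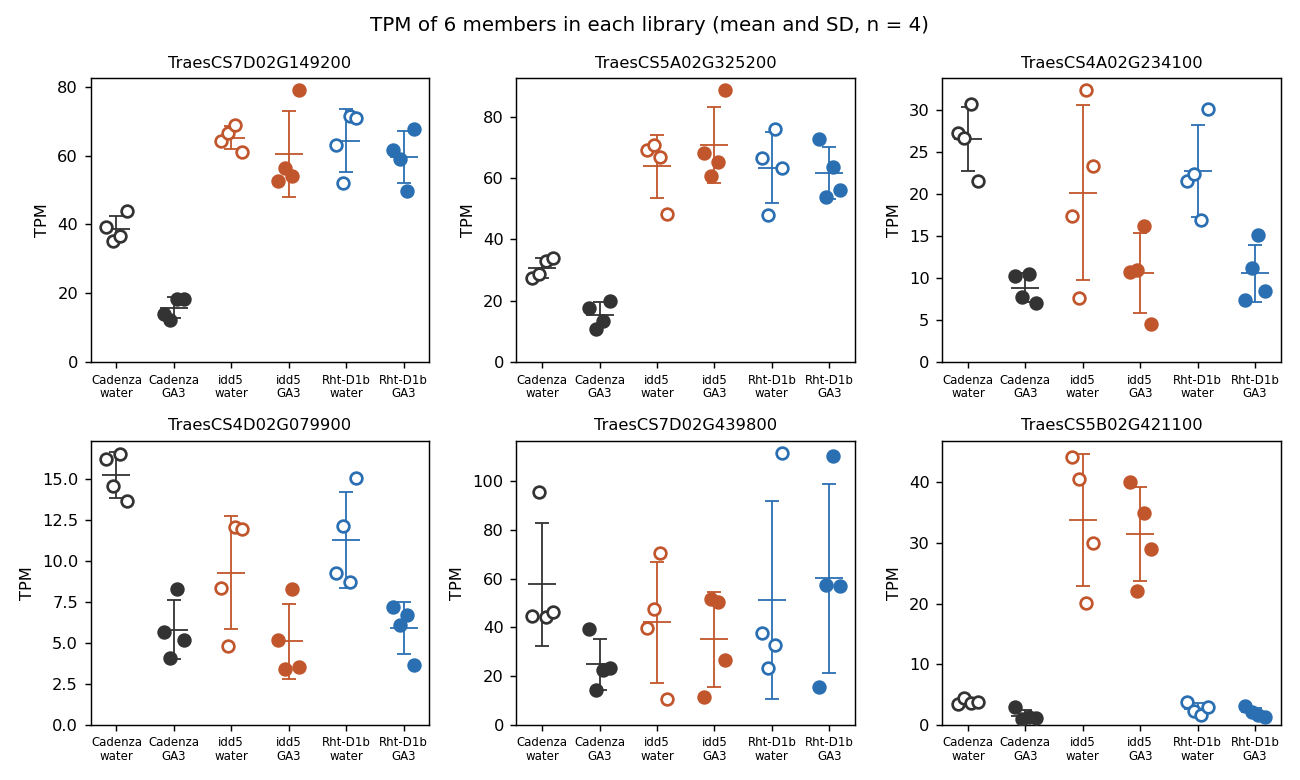
TPM of 6 members in each library, with the mean and SD of each group of 4 (open, water; filled, GA3). TraesCS7D02G149200 and TraesCS5A02G325200 are at one level in all mutant groups, TraesCS4A02G234100 and TraesCS4D02G079900 have lower means under GA3 in all lines, TraesCS7D02G439800 spreads widely within the mutant groups, and TraesCS5B02G421100 is high in *idd5* only.

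One member set the mutants apart. In water-treated seedlings TraesCS5B02G421100 had 44.3, 40.5, 20.1 and 30 TPM in *idd5* and 3.73, 2.27, 1.53 and 2.97 TPM in *Rht-D1b*. Under GA3 it had 40.1, 22, 35 and 29.1 TPM in *idd5* and 3.1, 2.13, 1.6 and 1.29 TPM in *Rht-D1b*. The *idd5* libraries were all above those of *Rht-D1b*, by 3.44 on the log2 scale in water (standard error 0.28, limma adjusted p = 6.91e-08) and by 3.68 under GA3 (standard error 0.28, limma adjusted p = 1.32e-08). In Cadenza it had 3.46, 4.4, 3.6 and 3.72 TPM in water and 2.83, 0.89, 1.2 and 1.06 TPM under GA3, and replicate 1 stood apart in the second group. Its level did not move with GA3 beyond the replicate spread in *idd5* (log2 change -0.07, standard error 0.28) or *Rht-D1b* (-0.30, standard error 0.28). It was the only member that passed limma's test between the mutants, 1 higher in *idd5* in each treatment against 0.206% of all tested genes in water and 0.346% under GA3, and 0 were lower (0.25% and 0.381%). At an unadjusted p under 0.05, 5 members were higher and 2 lower in water (6.8% and 5.02%), and 2 higher and 4 lower under GA3 (6.82% and 7.07%).

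By the chromosome in their identifiers, 29 members were on the A, 32 on the B and 36 on the D subgenome and 3 on no assigned chromosome, against 33.7%, 32.0%, 33.1% and 1.17% of the tested genes with a Cadenza mean of at least 2 TPM. Chromosome 5D held 12 of the 100, against 5.47% of those genes. Some of them are neighbours in identifier order, namely TraesCS5D02G190700 with TraesCS5D02G190800, and TraesCS5D02G414000 with TraesCS5D02G414100 and TraesCS5D02G414300. On chromosome 5A, TraesCS5A02G185600 was next to TraesCS5A02G185700. TraesCS3A02G501800 and TraesCS3A02G502100 had equal TPM in all 24 libraries, so they count as 1 pattern. Reads of near-identical genes may have been split between them by the quantification, so the values of neighbouring and homoeologous copies are uncertain to that extent.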

How the data were processed

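RNA-seq of wheat leaf sheaths was used for 24 libraries, 4 for each of 6 groups taken from the sample titles. The authors trimmed the reads with Trimmomatic (version 0.39), quantified them with Kallisto (version not given in the sources used here) and deposited a single table of TPM, 1 column per library. The methods and the series text name different releases of the wheat genome, and the identifiers here are those of the table. TPM keeps no read depth, so no count test, interval or floor was used and the precision rests on the 4 replicates.

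The members and the lists were chosen with earlier results of these data known. From the deposited TPM, log2(TPM + 0.5) was fitted with limma (version 3.58.1, R 4.3.3), with 6 group means, variances moderated by empirical Bayes along a mean-variance trend, and p-values adjusted by Benjamini-Hochberg over the 63241 genes that reached 0.5 TPM in 4 or more libraries. The threshold was an adjusted p-value of 0.01. All 100 members passed this filter. Only contrasts between mutant groups were tested, since the Cadenza libraries chose the members. The variance of each gene was still estimated from all 24 libraries, the 8 of Cadenza among them. Members spread less in Cadenza (median SD 0.46) than in the mutant groups (0.82), so standard errors and p-values for the mutants may be too small. With only the groups compared, 0 members were called under GA3 in either line. The smallest adjusted p of a member was then 0.677 in *idd5* and 0.292 in *Rht-D1b* (limma). Nothing in the labels says whether replicates were separate pots or pools, so p-values measure the spread between these samples. For single genes, exact two-sided permutation tests were run with scipy 1.17.1 (Python 3.11.15, pandas 2.3.3, numpy 2.4.6). The fit was also run on simulated data with planted changes, after the main fit, and the outcome is not given here.

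Named genes were the 12 with the largest ratio, the 5 most abundant in water-treated Cadenza, in each mutant the 4 with the largest fall and the 2 with the largest rise, members past the threshold in a tested contrast, the 2 on each side of the limit and up to 2 of each mutant in water farthest above or below both Cadenza groups, 31 members in all, of which the text describes those its results turn on. TraesCS7D02G149200, TraesCS7B02G137200, TraesCS4D02G079900, TraesCS4B02G281800, TraesCS7B02G456500, TraesCS7B02G458800, TraesCS5D02G225600 and neighbouring genes were named after their values had been seen. Lists of GA metabolism, cell wall, stress and cell type marker genes could not be applied, and no sequence is shown, because 0 identifiers matched the reference table. Alternatives were a pseudocount of 0.1 or 1, the filter dropped or raised to 2 TPM, scaling of the libraries by median ratios, only the groups compared, no trend, an adjusted p-value of 0.05, a replicate block, each library left out, and 4 changes of the rule.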

Additional observations from a re-analysis of the deposited data

Results flagged for a closer look

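Of 192 groups of 4 libraries examined, 21 held a library that stood apart from the other 3 by a gap that exceeded Dixon's critical value for 4 samples. Chance gives about 1 in 20 for independent groups of normally distributed values. The genes were examined as TPM without a log scale, and many of them moved together in the same libraries. Whether 21 is more than chance gives was therefore not tested. In water-treated Cadenza, replicate 2 was the highest for TraesCS3A02G537700 (280 TPM), TraesCS7A02G450400 (104 TPM), TraesCS7D02G439800 (95.6 TPM), TraesCS5A02G185600 (25.6 TPM) and TraesCS2B02G517400 (19.8 TPM), and for the median of the members (0.32 on the log2 scale relative to the mean of the group), and replicate 4 for TraesCS2D02G295000 (23.7 TPM). In GA-treated Cadenza, replicate 1 was the highest for TraesCS6A02G238300 (7.56 TPM) and TraesCS5B02G421100 (2.83 TPM).

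In water-treated *Rht-D1b*, replicate 4 was the highest for TraesCS7A02G450400 (125 TPM), TraesCS7D02G439800 (111 TPM), TraesCS6A02G238300 (28.3 TPM), TraesCS4D02G187500 (10.9 TPM), TraesCS5D02G491700 (8.86 TPM) and TraesCS6A02G316000 (7.38 TPM), and replicate 2 was the lowest for TraesCS2B02G517400 (3.67 TPM). In GA-treated *Rht-D1b*, replicate 1 was the lowest for TraesCS4B02G177800 (2.44 TPM). In *idd5*, replicate 3 was the highest for TraesCS1A02G301100 in water (2.74 TPM) and, under GA3, for TraesCS4A02G279200 (9.53 TPM), TraesCS5D02G435100 (3.98 TPM) and TraesCS5D02G491700 (2.7 TPM), which is listed at 0 in the other GA-treated *idd5* libraries.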

How the results depend on the processing

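Under the alternatives run, 8 counts of members moved by over 1.5 times or to 0. The other 560 counts and medians did not. A median log2 change was held to have moved only if it shifted by more than 1 SD of the library medians within groups. That SD was 0.53 to 0.74 in the mutant groups, larger than the medians, so a median could change sign and be held unmoved. Counts that stayed at 0 are also among the 560. By ratio the medians moved more, from -0.06 to -0.58 in *idd5*, and in *Rht-D1b* they ran from -0.24 to 0.35. No named gene crossed the threshold under any of them, and of 3658 values of named genes 292 changed sign, all of them changes that had not passed it. With each library left out in turn, the members with a negative change in *Rht-D1b* numbered 37 to 81, and those lower in *idd5* than in *Rht-D1b* in water 26 to 81, with 28 without water-treated *idd5* replicate 4 and 26 without water-treated *Rht-D1b* replicate 4. The member called higher in *idd5* than in *Rht-D1b*, in water and under GA3, was TraesCS5B02G421100, and the number was 0 in both when the rule asked for a mean of 5 TPM or kept the 50 largest ratios, since neither list holds this gene. A mean of 5 TPM kept 59 of the 100 members, scaled TPM 89 and medians 84.

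The deviations of samples of the same replicate number had correlations from -0.09 to 0.15 over genes. Samples of unlike number were not compared, so these values cannot settle whether the numbers pair the samples. With a replicate block, the median change of the members was -0.26 in *idd5* and -0.02 in *Rht-D1b*, 0 members were called under GA3 in either line and 1 between the lines in each treatment, as without it. With 4 libraries a group and the replicate spread of these genes, changes such as the -1.09 of TraesCS4A02G234100 in *Rht-D1b* did not pass the adjusted threshold, so a miss does not show that a gene stayed at its level.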
